A study of Rattus norvegicus with 12 samples.

Results

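The genes described here encode the thin filament of the cardiac sarcomere, the actin cable on which myosin pulls, together with the proteins that set its length. They were chosen by name as 10 of the 30560 genes listed in a table of read counts from rat hearts: cardiac and skeletal alpha-actin (Actc1, Acta1), the adult cardiac troponins T, I and C (Tnnt2, Tnni3, Tnnc1), the slow skeletal troponins T and I (Tnnt1, Tnni1), alpha-tropomyosin (Tpm1), leiomodin 2 (Lmod2) and tropomodulin 1 (Tmod1). All 10 passed the minimum of 10 counts in total that 18182 genes passed. RNA came from formalin-fixed, paraffin-embedded sections of the middle block of the left ventricle of 12 male Wistar rats, with 1 library per rat. Surgery took place at 7 weeks of age. Sham rats had the chest opened without a coronary suture and were given 0.5% carboxymethylcellulose as vehicle. MI rats had the left anterior descending coronary artery tied off permanently, which causes a myocardial infarction, and were given the same vehicle. MI + UA rats had the same ligation and were given urolithin A (UA), a gut bacterial metabolite studied as an inducer of mitophagy, by gavage for 8 weeks. Each group held 4 rats. Rat 66 is MI + UA by its sample label but stands among the vehicle-treated MI rats in the study's echocardiography list, and was counted as MI + UA.

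In a heart muscle cell, calcium binds troponin C, troponin I then lets go of actin, and troponin T passes the movement to tropomyosin, which slides off the sites that myosin needs. Tropomodulin caps the pointed end of each filament and leiomodin lengthens it there. The adult rodent ventricle uses mainly cardiac actin and cardiac troponin I, while skeletal alpha-actin and slow skeletal troponin I belong to the fetal heart, and skeletal alpha-actin is a classical marker of cardiac overload.

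The promoters of the cardiac and skeletal actins, whose reads are set against each other below, and of the adult troponins T and I are shown because members of one complex were measured side by side. The sequences are from RefSeq (rat build GRCr8, not the build to which the reads were mapped), run from 250 bases before the annotated start site to 50 bases after it, and are written 5′ to 3′ on the strand of the gene. Capitals mark the motifs found by a search of both strands for the CArG box (bound by serum response factor), the MEF2 box, CATTCC (the M-CAT core), GATAAG and TATAAA, with no overlaps among the matches in these members. Acta1 lies on the minus strand at chr19:68784145-68784444, Actc1 on the minus strand at chr3:121271778-121272077, Tnnt2 (the first of 2 annotated starts) on the plus strand at chr13:49818873-49819172 and Tnni3 on the plus strand at chr1:78342321-78342620.
Acta1: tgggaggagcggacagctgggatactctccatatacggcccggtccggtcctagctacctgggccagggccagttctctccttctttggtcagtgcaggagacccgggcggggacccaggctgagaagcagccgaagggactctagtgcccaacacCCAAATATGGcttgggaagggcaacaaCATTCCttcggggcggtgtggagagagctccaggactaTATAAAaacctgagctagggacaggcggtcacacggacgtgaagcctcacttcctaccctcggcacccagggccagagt
Actc1: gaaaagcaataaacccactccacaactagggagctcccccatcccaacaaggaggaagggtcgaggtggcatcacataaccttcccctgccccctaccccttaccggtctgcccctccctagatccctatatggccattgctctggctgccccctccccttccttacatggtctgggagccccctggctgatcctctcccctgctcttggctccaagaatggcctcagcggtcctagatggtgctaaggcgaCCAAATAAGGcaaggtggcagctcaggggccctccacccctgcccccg
Tnnt2: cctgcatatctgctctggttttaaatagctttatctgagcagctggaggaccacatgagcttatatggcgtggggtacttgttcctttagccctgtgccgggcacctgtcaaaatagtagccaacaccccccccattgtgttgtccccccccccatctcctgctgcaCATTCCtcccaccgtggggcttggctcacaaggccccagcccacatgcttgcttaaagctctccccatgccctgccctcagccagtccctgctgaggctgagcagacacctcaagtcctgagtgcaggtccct
Tnni3: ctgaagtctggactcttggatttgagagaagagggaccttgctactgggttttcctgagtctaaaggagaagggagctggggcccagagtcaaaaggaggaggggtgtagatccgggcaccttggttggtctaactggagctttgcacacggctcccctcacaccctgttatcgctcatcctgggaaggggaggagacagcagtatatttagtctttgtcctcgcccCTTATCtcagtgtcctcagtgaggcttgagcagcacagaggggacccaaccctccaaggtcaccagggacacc

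In the Acta1 window a CArG box began 94 bases before the start site, a CATTCC 67 bases before it and a TATAAA 29 bases before it. The Actc1 window held a CArG box as well, beginning 2 bases after the annotated start. Both actin windows thus held a motif found in 1.64% of 33469 rat promoter windows of this length. Tnnt2 held a CATTCC beginning 83 bases before its first start, and Tpm1 held one on the opposite strand whose first base lay 31 bases before the start, against 14.2% of all windows. Tnni3 held GATAAG on the opposite strand (7.05% of all windows) and Tnnt1 a TATAAA 30 bases before its start (14.2% of all windows). The MEF2 box (3.29% of all windows) was found in none of the 10 windows, which covered 9 of the 10 members, and Tnni1, Lmod2, Tmod1 and the second Tnnt2 start held none of the 5 motifs in these windows. The slow skeletal and the cardiac troponin genes were neighbours in the annotation. The starts of Tnni3 and Tnnt1 lay 6464 bases apart on the plus strand of chromosome 1, and those of Tnni1 and Tnnt2 lay 37594 bases apart on the plus strand of chromosome 13, so that each neighbourhood paired 1 adult cardiac with 1 slow skeletal subunit.

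Reads on genes ranged from 6228706 to 8958828 per Sham rat, from 6829591 to 12743184 per MI rat and from 6819444 to 19031695 per MI + UA rat, and mitochondrially encoded genes took 50.2% to 58.6% of them. Reads assigned to no single gene made up 51.7% to 53.1% of counted reads in Sham, 55.2% to 56.7% in MI, without overlap, and 52.8% to 57.1% in MI + UA. CPM below are counts per 1000000 gene reads, with library sizes adjusted by edgeR's trimmed mean of M-values (TMM), and a called gene is one with an adjusted p under 0.05 in edgeR's quasi-likelihood test over all 18182 genes. CPM are not divided by transcript length, so the level of a gene is compared among rats and not with that of another gene.

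Among the troponins and tropomyosin, the 4 adult cardiac genes were lower after infarction. Tnni3, Tpm1, Tnnc1 and Tnnt2 had log2 fold changes of -0.67, -0.50, -0.46 and -0.37 in MI versus Sham (changes of -37.1%, -29.2%, -27.3% and -22.5%), each with an adjusted p under 0.05. No member was called higher. In all, 4 of the 10 members were called lower, where 5.53% of all tested genes were called lower and 5.82% higher. Abundant genes were called more often, with 18.7% of the 3098 genes at an average log2 CPM of at least 5 called lower, and 4 of the 8 members in that range were among them. The median log2 fold change of the 10 members was -0.20, against 0.03 for all tested genes, and that of the 8 abundant members was -0.30, against -0.05 for all abundant genes. In 3 of the 10 members the MI and Sham rats did not overlap in either direction, where 15.7% of all tested genes showed no overlap.

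**Figure D1:**
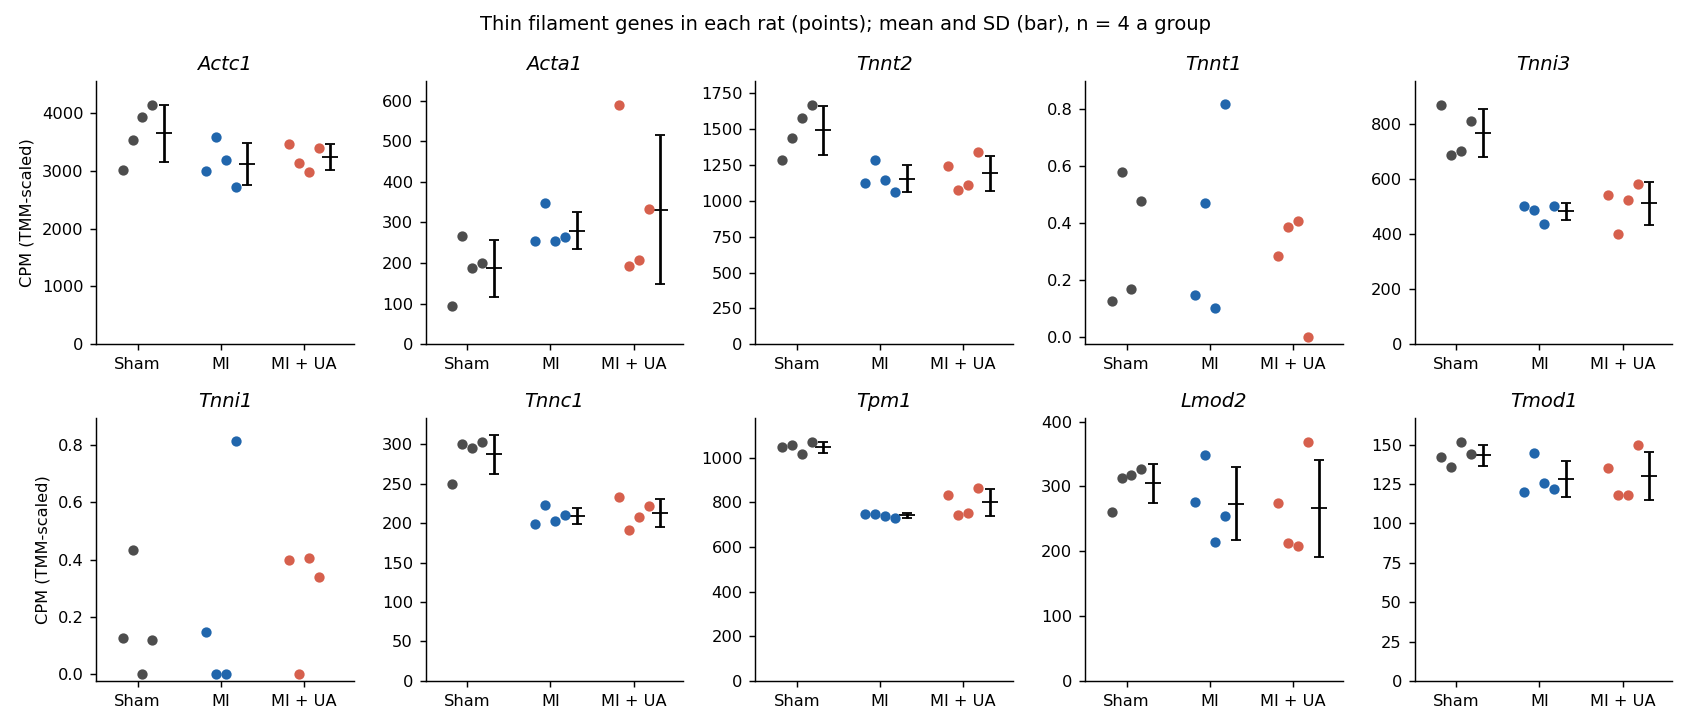
Each panel shows one gene, with CPM on the vertical axis (starting at or just under 0) and the 12 rats as points in their 3 groups; black bars give the mean and SD (n = 4) and are left out for Tnnt1 and Tnni1. All 4 MI rats and all 4 MI + UA rats lie below all 4 Sham rats for Tnni3, Tnnc1 and Tpm1, and 1 MI + UA rat at 590 CPM stands above the rest for Acta1.

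Troponin I, the inhibitory subunit, showed the steepest fall. Tnni3 (ENSRNOG00000018250) had 867, 685, 702 and 807 CPM in Sham rats 12, 17, 32 and 38, and 501, 486, 436 and 503 CPM in MI rats 36, 57, 61 and 89. The MI + UA rats 29, 58, 64 and 66 had 540, 399, 523 and 580 CPM. Every ligated rat, treated or not, lay below every Sham rat, and the treated and untreated ligated rats overlapped. The log2 fold change in MI versus Sham was -0.67 (SE 0.10, edgeR adjusted p = 0.000238).

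Tropomyosin, the strand that covers the myosin sites, was tightly grouped within Sham and within MI. Tpm1 (ENSRNOG00000018184) had 1048, 1056, 1015 and 1073 CPM in the Sham rats and 748, 750, 741 and 729 CPM in the MI rats, in the same rat order. In the MI + UA rats it had 835, 744, 754 and 867 CPM. Treated rats 29, 64 and 66 lay above all MI rats, rat 64 by a small margin, rat 58 lay among them, and all 8 ligated rats lay below Sham. The log2 fold change in MI versus Sham was -0.50 (SE 0.07, edgeR adjusted p = 0.000123).

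Troponin C, the calcium sensor of the filament, was lower as well, with a wider spread relative to its level than Tpm1 in Sham and MI. Tnnc1 (ENSRNOG00000018943) had 250, 300, 296 and 303 CPM in Sham, with rat 12 apart from the others, and 200, 223, 203 and 210 CPM in MI. The MI + UA rats had 233, 192, 208 and 222 CPM. Sham stood above both ligated groups without overlap, with a log2 fold change in MI versus Sham of -0.46 (SE 0.08, edgeR adjusted p = 0.000981).

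Troponin T, which ties the troponin complex to tropomyosin, changed less and its groups touched. Tnnt2 (ENSRNOG00000033734) had 1282, 1436, 1581 and 1669 CPM in Sham, 1128, 1285, 1146 and 1065 CPM in MI, and 1241, 1073, 1114 and 1338 CPM in MI + UA. The lowest Sham rat, 12, fell just under the highest MI rat, 57, and inside the MI + UA range. The log2 fold change was -0.37 (SE 0.09, edgeR adjusted p = 0.0133). The call depended on single libraries: in fits that each left out 1 of the 12 rats it held in 9, and was lost without Sham rat 32, without Sham rat 38 or without MI rat 89, with an adjusted p of up to 0.0635, whereas the calls of Tnni3, Tpm1 and Tnnc1 held in 12 of 12.

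The other abundant members were not called in MI versus Sham. Actc1 (ENSRNOG00000008536), the main actin of the heart muscle cell, had 3020, 3536, 3929 and 4144 CPM in Sham, 2997, 3585, 3189 and 2715 CPM in MI and 3461, 3143, 2985 and 3404 CPM in MI + UA, in the same rat order. The 3 groups overlapped, and the log2 fold change of -0.23 (SE 0.10) had an edgeR adjusted p of 0.166. Without Sham rat 12, the lowest Sham rat, the adjusted p was 0.0497, the only 1 of 12 fits with 1 rat left out that was under 0.05. Over these fits the log2 fold change ran from -0.31 to -0.16, with an edgeR adjusted p of up to 0.414.

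The genes for the pointed end of the filament, too, overlapped in all groups. Lmod2 (ENSRNOG00000045831), the elongating leiomodin, ranged from 260 to 328 CPM in Sham, from 214 to 348 CPM in MI and from 208 to 369 CPM in MI + UA. Tmod1 (ENSRNOG00000009761), the capping tropomodulin, ranged from 136 to 152 CPM in Sham, from 120 to 145 CPM in MI and from 118 to 150 CPM in MI + UA. Their log2 fold changes in MI versus Sham were -0.16 for Lmod2 (SE 0.15, edgeR adjusted p = 0.599) and -0.16 for Tmod1 (SE 0.09, edgeR adjusted p = 0.285).

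Skeletal alpha-actin was widely spread in Sham and in MI + UA. Acta1 (ENSRNOG00000017786) had 93.2, 266, 187 and 200 CPM in Sham rats 12, 17, 32 and 38, and 255, 347, 254 and 263 CPM in MI rats 36, 57, 61 and 89. In MI + UA rats 29, 58, 64 and 66 it had 590, 194, 206 and 334 CPM. Sham rat 17 stood above 3 of the 4 MI rats, and MI + UA held both the highest rat of all and 2 rats at Sham levels. The log2 fold change was 0.58 in MI versus Sham (SE 0.28, edgeR adjusted p = 0.213). With 1 rat left out at a time it ran from 0.36 to 0.81 (edgeR adjusted p from 0.0876 to 0.470).

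**Figure D2:**
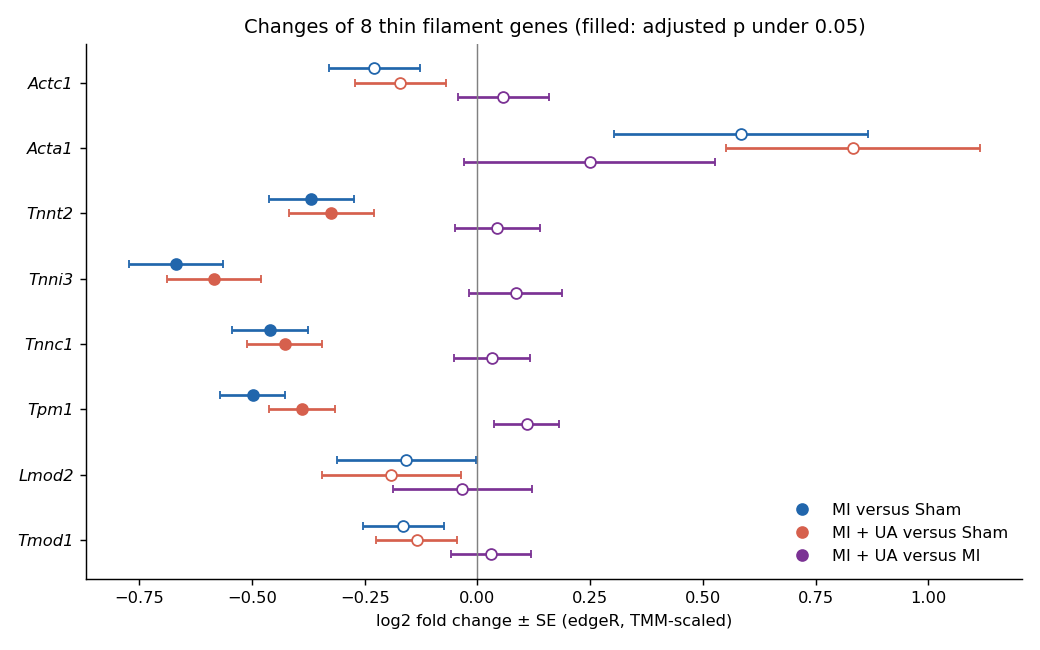
Horizontal axis, log2 fold change with its SE (bars) for the 8 abundant members in MI versus Sham (blue), MI + UA versus Sham (orange) and MI + UA versus MI (purple); filled points have an edgeR adjusted p under 0.05. The blue and orange points of Tnni3, Tpm1, Tnnc1 and Tnnt2 are filled and lie below 0, and no purple point is filled.

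The balance of skeletal to cardiac actin within a rat does not depend on how libraries are scaled to each other. Coding sequences of the muscle actins are nearly identical, and reads that matched more than 1 place were counted for none (2.05% to 2.53% of counted reads), so the counts come from stretches that differ, and the ratio can be compared among rats but does not give the proportion of the 2 transcripts. Per 100 Actc1 reads there were 3.09, 7.54, 4.76 and 4.82 Acta1 reads in Sham rats 12, 17, 32 and 38. MI rats 36, 57, 61 and 89 had 8.50, 9.69, 7.97 and 9.70. MI + UA rats 29, 58, 64 and 66 had 17.04, 6.17, 6.91 and 9.80.

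All MI rats thus stood above all Sham rats. The means were 5.05 ± 1.84 in Sham, 8.96 ± 0.87 in MI and 9.98 ± 4.96 in MI + UA (SD, n = 4 each). The MI ratio was 1.86 times the Sham ratio as a geometric mean, higher in 16 of 16 pairs of rats (two-sided exact permutation test on log2 ratios, p = 0.0286, the smallest that 4 rats against 4 allow). After Benjamini-Hochberg adjustment over the 9 comparisons of 3 ratios the p was 0.257, so the difference did not pass the correction, and no comparison in this design could reach an adjusted p under 0.05 unless several others also reached the smallest p. The log2 difference lay between 0.68 (without Sham rat 12) and 1.11 (without Sham rat 17) when 1 rat at a time was left out.

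In MI + UA the untransformed ratio spanned a wider range than in MI or in Sham. Rat 29 lay above every other rat, rats 58 and 64 lay under every MI rat and rat 66 lay just above the MI range. Rats 29 and 66 also had the deepest libraries (17382116 and 19031695 gene reads), against 6819444 and 7060389 in rats 58 and 64. A part of depth in this split was not tested. The log2 difference from MI was 0.04 (exact permutation p = 0.914, adjusted p = 0.914), with the treated rat higher in 8 of 16 pairs, and it was -0.26 without rat 29. Against Sham the log2 difference was 0.93 (exact permutation p = 0.0857, adjusted p = 0.386), with 14 of 16 pairs higher.

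**Figure D3:**
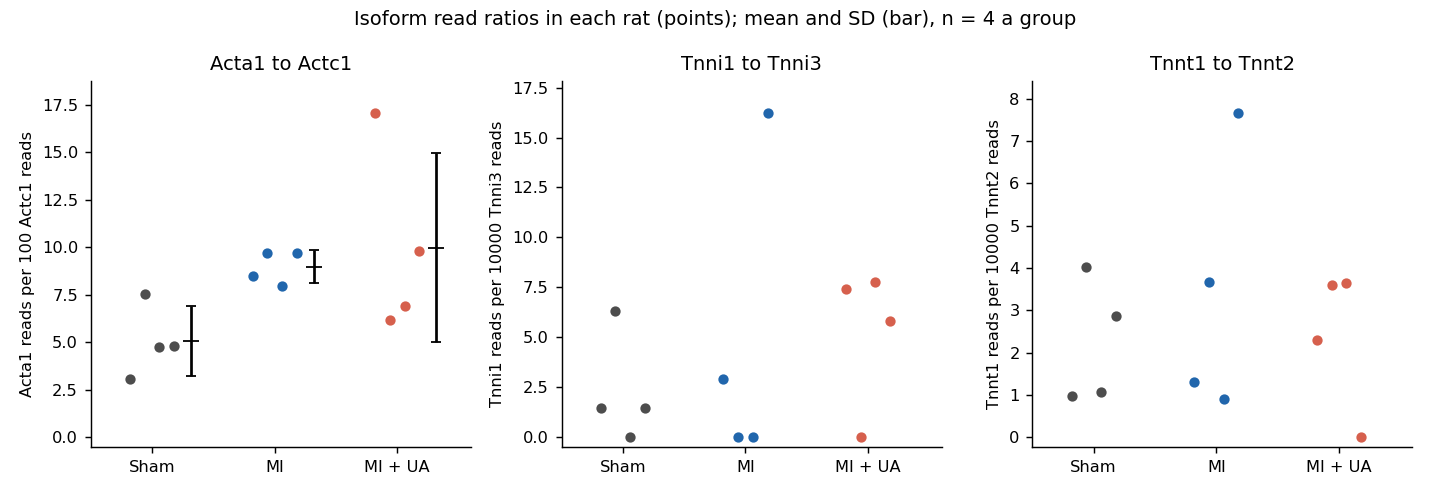
Read ratios per rat (points) in the 3 groups: Acta1 reads per 100 Actc1 reads (left, with mean and SD, n = 4), Tnni1 reads per 10000 Tnni3 reads (middle) and Tnnt1 reads per 10000 Tnnt2 reads (right). On the left all MI points (7.97 to 9.70) lie above all Sham points (3.09 to 7.54), while MI + UA runs from 6.17 to 17.04; the other panels overlap in all groups and rest on at most 10 reads per rat.

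The slow skeletal troponins were barely detected. Slow troponin I is the fetal form in the heart, whereas fetal troponin T is a splice form of Tnnt2 itself, which counts per gene do not show, so the Tnnt1 to Tnnt2 ratio is not a fetal to adult measure. Tnni1 (ENSRNOG00000009073) had 1, 3, 0 and 1 counts in the Sham rats, 2, 0, 0 and 10 counts in the MI rats and 7, 0, 3 and 6 counts in the MI + UA rats, beside 3102 to 10301 counts of Tnni3 per rat. Rat 89 accounted for 10 of the 12 Tnni1 counts of the MI group.

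Tnni1 took at most 0.162% of the Tnni1 and Tnni3 reads of a rat, in rat 89 (95% Clopper-Pearson interval 0.0776% to 0.297%). In the 4 rats with 0 counts, 3 counts of the total would allow a share of 0.0714% to 0.0967% (95% Clopper-Pearson upper limits 0.0877% to 0.119%). These limits cover counting error only. Pooled over 4 rats there were 2.21 Tnni1 reads per 10000 Tnni3 reads in Sham, 5.90 in MI and 5.99 in MI + UA. Single rats carried the Sham and MI values, with 1.12 in Sham without rat 17 and 1.41 in MI without rat 89. The MI + UA value stayed between 5.21 (without rat 29) and 6.78 (without rat 58). The exact permutation p-values of the 3 comparisons of log2 ratios (with 0.5 added to each count) ran from 0.314 to 0.743, all with an adjusted p of 0.914, so that no difference was detectable at this depth.

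Tnnt1 (ENSRNOG00000028041) had 1, 4, 1 and 4 counts in Sham, 2, 3, 1 and 10 counts in MI and 5, 3, 3 and 0 counts in MI + UA, beside 8194 to 23784 counts of Tnnt2. The pooled ratios were 2.30 Tnnt1 reads per 10000 Tnnt2 reads in Sham, 3.35 in MI and 1.77 in MI + UA. Rat 89 held 10 of the 16 Tnnt1 counts of MI, and without it the MI ratio was 1.73. Without rat 66 the MI + UA ratio was 2.87. In rat 66, at 0 counts, 3 counts would allow a share of up to 0.0126% (95% Clopper-Pearson upper limit 0.0155%). The exact permutation p-values ran from 0.571 to 0.8286, each with an adjusted p of 0.914. In the fit over all genes neither slow troponin was called, with log2 fold changes in MI versus Sham of 0.63 for Tnni1 (95% confidence interval -1.58 to 2.84) and 0.16 for Tnnt1 (95% confidence interval -1.59 to 1.91).

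Other members set against Actc1 in the same rat moved unevenly, a comparison chosen after the values were seen and given as a description. Tnnt2 had 40.2 to 42.5 reads per 100 Actc1 reads in Sham, 35.8 to 39.2 in MI and 34.1 to 39.3 in MI + UA, so that every ligated rat lay below every Sham rat. Tnni3 had 17.9 to 28.7 in Sham, 13.6 to 18.5 in MI and 12.7 to 17.5 in MI + UA, with rat 12 at the upper end. Tmod1 overlapped throughout, with 3.48 to 4.70 reads per 100 Actc1 reads in Sham, 3.94 to 4.48 in MI and 3.76 to 4.40 in MI + UA. Tnnc1 had 7.32 to 8.49 in Sham, 6.23 to 7.73 in MI and 6.10 to 6.95 in MI + UA, and Tpm1 had 25.8 to 34.7, 20.9 to 26.8 and 23.7 to 25.5, so that for both genes Sham overlapped MI but not MI + UA. Lmod2 overlapped throughout, with 7.90 to 8.86 in Sham, 6.72 to 9.71 in MI and 6.76 to 10.8 in MI + UA.

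RNA levels of cell type markers differed between Sham and MI as well. Of all tested genes 5.53% were called lower and 5.82% higher in MI versus Sham, and 18.7% of the abundant genes were called lower. The 9 tested ventricular cardiomyocyte markers (Ttn, Myh6, Myl2, Myl3, Mybpc3, Actn2, Ryr2, Atp2a2, Cacna1c) were all called lower in MI versus Sham, and their summed level was 48066 to 53911 CPM in Sham, 33001 to 38930 CPM in MI and 35063 to 46460 CPM in MI + UA. Of the fibroblast and scar markers 7 of 8 were called higher, with sums of 1186 to 1489, 2313 to 4013 and 2379 to 4123 CPM. Of the macrophage markers 5 of 6 were called higher, with sums of 61.3 to 75.9, 106 to 140 and 95.6 to 156 CPM. Their part in the members' falls was not tested, and in bulk tissue fewer heart muscle cells and less RNA per cell cannot be told apart.

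Markers of other muscle were low or mixed. Of the smooth muscle markers 2 of 5 were called higher, with sums of 113 to 131 CPM in Sham, 123 to 208 in MI and 115 to 155 in MI + UA. Of the 5 atrial markers, whose sums were 22.3 to 83.6 CPM in Sham, 194 to 486 in MI and 189 to 352 in MI + UA, Nppa alone was called higher in MI versus Sham. Nppa made up most of these sums, at 18.3 to 80.1 CPM in Sham, 181 to 479 in MI and 183 to 347 in MI + UA. Of the other 4, Myl4 (0.168 to 0.866 CPM in Sham, 0.934 to 1.79 in MI) and Bmp10 (0.119 to 0.505 and 0.512 to 1.04 CPM) did not overlap between these groups, Myl7 (2.16 to 2.98 and 0.658 to 10.4 CPM) did, and Sln, the 1 gene of the list with a lower fitted level in MI, was at 0 to 1.52 CPM. Of the 7 fast skeletal muscle markers 3 were tested and none called, with 0 calls at 0.05 unadjusted as well, and their sums were 2.16 to 3.54, 1.87 to 3.61 and 1.22 to 2.57 CPM in Sham, MI and MI + UA.

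Scaling to heart muscle cell transcripts moved the members together with all other genes. When libraries were scaled to the summed counts of the 9 cardiomyocyte markers in place of TMM, the median log2 fold change of all genes in MI versus Sham shifted by 0.54. On that scale 0 members were called lower, where 0.187% of all tested genes were, and 4 of 10 were called higher in edgeR's test, where 43.3% of all tested genes were, a share near that of the members. The 4 were Acta1 (log2 fold change 1.08, adjusted p = 0.00242), Tmod1 (0.35, adjusted p = 0.00657), Lmod2 (0.34, adjusted p = 0.0235) and Actc1 (0.28, adjusted p = 0.0259). Tnnt2, Tnnc1 and Tpm1 stood at 0.14, 0.05 and 0.01, and Tnni3 at -0.16, none of them called. Acta1 lay above the shift of all genes and the other 7 abundant members lay below it.

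Ttn alone took 70.3% of the reads of that list, and Myh6, whose fall with overload is well known, another 9.45%. Scaling to the other 7 genes, an alternative chosen after seeing the data, shifted the median of all genes by 0.47, with 39.6% of all tested genes called higher and 0.335% lower. It left Acta1 (1.04, adjusted p = 0.00397), Tmod1 (0.28, adjusted p = 0.0149) and Actc1 (0.23, adjusted p = 0.0458) called higher. Lmod2 was then at 0.29 (adjusted p = 0.067) and Tnni3 at -0.22 (adjusted p = 0.0766). Tmod1 and Actc1 lay below that shift and Acta1 above it.

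**Figure D4:**
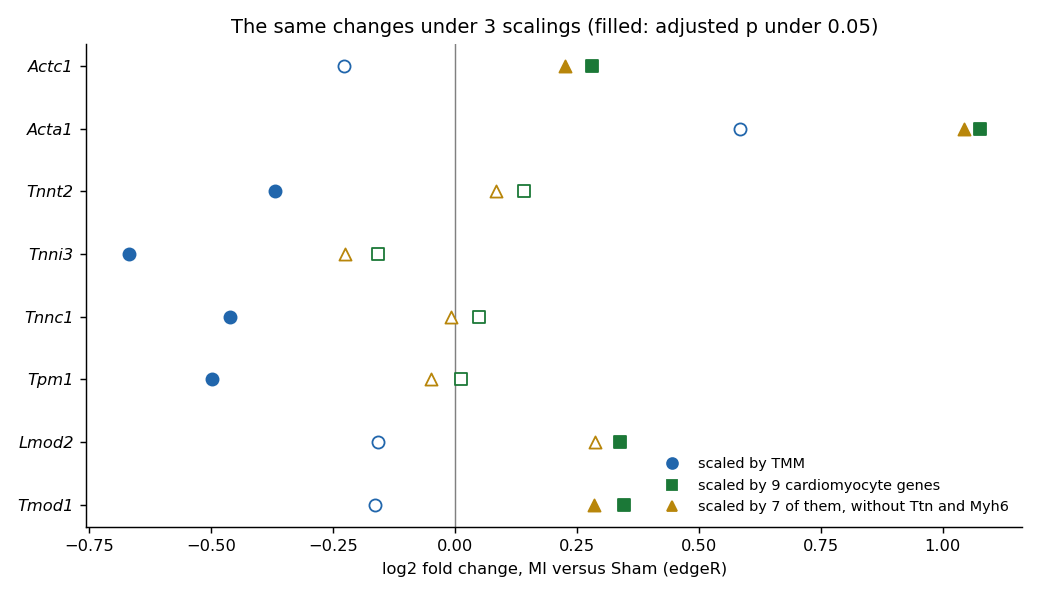
Log2 fold change in MI versus Sham (horizontal axis) of the 8 abundant members when libraries were scaled by TMM (circles), by 9 cardiomyocyte genes (squares) or by 7 of them (triangles); filled symbols have an edgeR adjusted p under 0.05. Squares and triangles lie to the right of the circles in every row, and only Acta1 is above 0 in all 3 and only Tnni3 below 0 in all 3.

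The question of the treatment is whether UA moved these genes in infarcted hearts. In MI + UA versus MI, 0 of 10 members were called, where 0% of all 18182 genes were called. At an unadjusted p under 0.05 there were again 0 of 10 members, against 3.79% of all genes, and DESeq2 called 0 members and 0 genes too. In 0 of 10 members were the 2 groups without overlap, against 2.34% of all genes. The median log2 fold change of the 10 members was 0.05, against 0.0047 for all tested genes.

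The intervals bound what could have been missed. Between treated and untreated infarcted hearts the log2 fold change was 0.11 for Tpm1 (95% confidence interval -0.04 to 0.26), 0.08 for Tnni3 (-0.13 to 0.30), 0.03 for Tnnc1 (-0.14 to 0.21) and 0.04 for Tnnt2 (-0.15 to 0.24). It was 0.06 for Actc1 (-0.15 to 0.27), 0.03 for Tmod1 (-0.16 to 0.22) and -0.03 for Lmod2 (-0.35 to 0.29). For Acta1 it was 0.25 (-0.33 to 0.83), and -0.19 without rat 29, so that 1 library set its sign. With rat 66 counted in MI, Tnni3, Tnnt2, Tnnc1 and Tmod1 stood at -0.04, -0.06, -0.0033 and -0.09.

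MI + UA versus Sham shares the Sham rats with the first comparison and the treated rats with the second. In it 4 of 10 members were called lower, where 4.27% of all tested genes were called lower, and 0 of 10 higher, where 5.16% were. The 4 were Tnni3 (log2 fold change -0.58, SE 0.10, edgeR adjusted p = 0.00111), Tpm1 (-0.39, SE 0.07, adjusted p = 0.00157), Tnnc1 (-0.43, SE 0.08, adjusted p = 0.00237) and Tnnt2 (-0.32, SE 0.09, adjusted p = 0.0333). In 3 of 10 members the groups did not overlap, against 14.3% of all genes.

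Tnnt2 was again the call that hung on single rats and held in 6 of 12 fits with 1 rat left out, being lost without Sham rat 17, 32 or 38 and without MI + UA rat 29, 58 or 64 (adjusted p up to 0.132). Acta1 had a log2 fold change of 0.83 (SE 0.28, edgeR adjusted p = 0.0694) and was called without Sham rat 17 (adjusted p = 0.0385), without MI + UA rat 58 (0.0278) or without MI + UA rat 64 (0.0371). Over the 12 fits with 1 rat left out its log2 fold change ran from 0.41 to 1.05, with an edgeR adjusted p of up to 0.346. Scaled to the 9 cardiomyocyte markers, Acta1 (1.22, adjusted p = 0.00161) and Tmod1 (0.27, adjusted p = 0.0362) were called higher and none of the 10 members lower, where 30.6% of all tested genes were called higher and 0.187% lower, with a median shift of 0.43. With the 7 markers, where 32.6% of all tested genes were called higher and 0.269% lower, Actc1 (0.23, adjusted p = 0.0467) was called higher beside Acta1 (1.23, adjusted p = 0.00153) and Tmod1 (0.25, adjusted p = 0.032).

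Paralogues of the members, which build actin filaments in other cells or other muscles, were mostly called higher under TMM. Of 10 such genes 9 were tested, and in MI versus Sham 6 were called higher and 0 lower, where 5.82% and 5.53% of all tested genes were, with a median log2 fold change of 0.56 against 0.03 for all genes. Actb, the beta-actin of nonmuscle cells, went from 1072 to 1261 CPM in Sham to 1442 to 1966 CPM in MI (log2 fold change 0.54, edgeR adjusted p = 0.00301). Tpm4, a nonmuscle tropomyosin, went from 76.5 to 92.0 CPM to 100.2 to 124 CPM (0.40, adjusted p = 0.0116). For both genes the Sham and MI rats did not overlap.

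Tpm3 (0.49, adjusted p = 0.00411), Tpm2 (0.66, adjusted p = 0.00966) and the fast skeletal troponin Tnnt3 (0.75, adjusted p = 0.00812) were called as well. Tnnt3 was a low gene, with 7.07 to 8.94 CPM in Sham and 10.4 to 18.97 CPM in MI. Acta2, the smooth muscle actin that also marks myofibroblasts, had 32.5, 33.2, 40.1 and 39.9 CPM in Sham rats 12, 17, 32 and 38, and 73.4, 32.3, 58.2 and 49.1 CPM in MI rats 36, 57, 61 and 89. MI rat 57 was the lowest of these 8 rats and the other 3 MI rats the highest, and the log2 fold change was 0.56 (edgeR adjusted p = 0.0346). In MI + UA versus MI 0 of 9 were called, with 0 at an unadjusted p under 0.05, where 0% and 3.79% of all tested genes were. In MI + UA versus Sham 5 were called higher and 0 lower, where 5.16% and 4.27% of all tested genes were. The 5 were Actb, Tpm4, Tnnt3, Tpm2 and, with a log2 fold change of 0.44, the nonmuscle actin Actg1 (edgeR adjusted p = 0.0263).

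Among 19 genes of filament assembly, capping and turnover, 1 was called higher and 2 lower in MI versus Sham, where 5.82% and 5.53% of all tested genes were, so that the calls were few in number and near the share over all genes. The median log2 fold change of the list was -0.06. Xirp2, an actin-binding repeat protein of the intercalated disc, was higher (616 to 708 CPM in Sham, 728 to 1263 CPM in MI, log2 fold change 0.53, edgeR adjusted p = 0.0191). Tmod4, the skeletal muscle tropomodulin, fell by 0.99 on the log2 scale (6.20 to 8.92 CPM in Sham, 1.76 to 5.85 CPM in MI, adjusted p = 0.0193).

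Nebl encodes nebulette, the cardiac relative of nebulin that lies along the thin filament near the Z-disc. It had 162, 140, 149 and 153 CPM in Sham rats 12, 17, 32 and 38, 121, 118, 104 and 116 CPM in MI rats 36, 57, 61 and 89, and 136, 117, 132 and 172 CPM in MI + UA rats 29, 58, 64 and 66. MI lay below Sham without overlap (log2 fold change -0.40, adjusted p = 0.0122), and 3 of the 4 treated rats lay above all MI rats. With treatment, MI + UA over MI, its log2 fold change was 0.28 (edgeR unadjusted p = 0.0101, adjusted p = 0.9997). Nebl was the 1 gene of the 19 with an unadjusted p under 0.05 in that comparison, where 3.79% of all tested genes had one. The count is thus near the share over all genes, and none of the 19 passed the correction. Rat 66, the highest treated rat for Nebl, is the rat whose group differs between its label and the echocardiography list. In MI + UA versus Sham, Xirp2 was called higher (0.56, adjusted p = 0.0148) and Nrap, which helps to assemble young myofibrils, lower (-0.32, adjusted p = 0.0278).

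**Figure D5:**
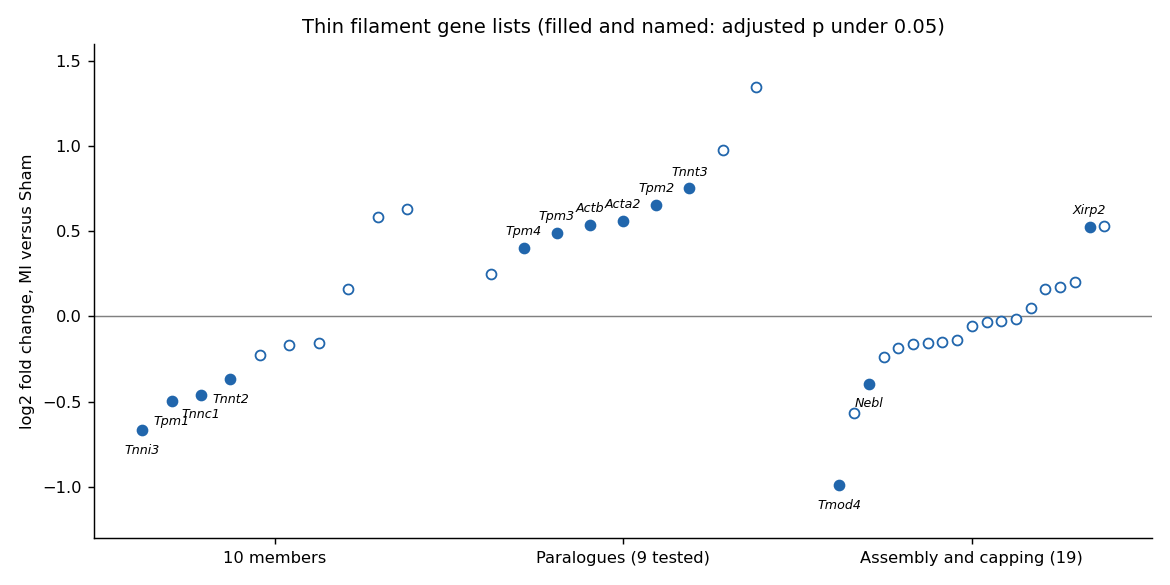
Log2 fold change in MI versus Sham (vertical axis, TMM scaling) for the 10 members, the 9 tested paralogues and the 19 assembly and capping genes, each list ordered from its lowest to its highest value; filled and named points have an edgeR adjusted p under 0.05. The named members all lie below 0, the named paralogues all above 0, and the third list has 1 named gene above 0 and 2 below.

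The genes whose log2 CPM followed the 2 actins most closely over the 12 rats were different for each. Among 10922 genes, the highest Pearson correlations with Acta1 were those of Smad7 (r = 0.89), Adgrg2 (0.88), Plxdc1 (0.87), Ankrd1 (0.87) and Stim1 (0.86). Those with Actc1 were Fxyd1 (0.97), Uqcrh (0.91), Rbm24 (0.91), Psma2 (0.91) and Masp1 (0.91). The points share their libraries and scaling, and the 3 groups contribute to them, so these values are a description.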

How the data were processed

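RNA sequencing of 12 rat hearts (Sham, MI and MI + UA, 4 rats each, 1 library per rat) was taken from the table of raw counts that the authors deposited. Per the study's methods and the submitters' processing notes, strand-specific libraries were made after rRNA depletion (the labels say polyA RNA), read pairs were mapped to mRatBN7.2 with STAR 2.6.1c, and HTSeq counted reads per Ensembl gene. The study excluded a further MI + UA library from its own analysis as an outlier by principal component analysis. That library was not analysed here. The 5 summary lines of the table were left out, and the 18182 of 30560 genes reaching 10 counts over all rats were tested. Counts were TMM-scaled and compared with edgeR 4.0.16 (quasi-likelihood test, 3 groups in 1 fit, R 4.3.3, Benjamini-Hochberg adjustment over all tested genes, threshold 0.05). The fit was tested on simulated data. Read ratios were compared as log2 of counts plus 0.5 with two-sided exact permutation tests (scipy 1.17.1) over 70 groupings, adjusted over 9 comparisons. Intervals of read shares are 95% Clopper-Pearson and cover counting error only. The labels name separate rats, so p-values measure the spread between animals. No batch is given in the sources used here.

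The members and gene lists were chosen with earlier results of these data known. All members were described in every rat. From the paralogue and assembly lists, genes with an adjusted p under 0.05 in any comparison were eligible by name, at most 8 a list, with Acta2 and Nebl always given. For likeness, the 5 genes of highest correlation were named among those with an average log2 CPM of at least 1. Alternatives were DESeq2 1.42.0, its size factors, other filters, fits of the 2 groups compared, TMM without mitochondrially encoded genes, scaling to cardiomyocyte markers, rat 66 counted in MI, another pseudocount, untransformed ratios and leaving out each rat.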

Additional observations from a re-analysis of the deposited data

Results flagged for a closer look

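Dixon's ratio was taken on the log2 CPM of each member and on each log2 read ratio, in 39 sets of 4 rats. It compares the gap between the highest or lowest rat and its nearest neighbour with the whole range of the set. The CPM and counts printed below are not the scale of the ratios. The rule was a ratio above its 95% critical value, which chance meets in about 1 of 20 sets. It was met in 4. Tnnc1 in Sham had a ratio of 0.871, with rat 12 lowest at 250 CPM beside 296 to 303 CPM. Acta1 in MI had a ratio of 0.887, with rat 57 highest at 347 CPM beside 254 to 263 CPM. Tnnt1 in MI + UA had a ratio of 0.833, with rat 66 lowest at 0 counts, and Tnni1 in MI + UA had a ratio of 0.911, with rat 58 lowest at 0 counts. The last 2 rest on at most 7 counts per rat.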

How the results depend on the processing

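No paired analysis was possible because each rat gave 1 library to 1 group. In MI versus Sham, 1468 to 2216 genes were called under the alternatives other than the marker scalings, and in MI + UA versus Sham 1155 to 1921. Scaling to the 9 or 7 cardiomyocyte markers gave 7913 and 7260 genes in MI versus Sham, 7879 and 7199 of them higher, and 5604 and 5975 in MI + UA versus Sham, 5570 and 5926 of them higher. Over all alternatives 3 to 5 and 2 to 5 members were called, but not always the same ones. On the marker scalings every called member was higher, and Tnni3, Tpm1, Tnnc1 and Tnnt2 were not called. In MI + UA versus MI, 0 genes were called except 3 with no filter on low counts and 1 without MI rat 36, and 0 members under all alternatives. Of 624 recomputed log2 fold changes of members 545 kept direction and side of the threshold.

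Scaling to the 9 cardiomyocyte markers turned the sign in MI versus Sham of Actc1 (0.28), Tmod1 (0.35), Tpm1 (0.012), Tnnc1 (0.049), Tnnt2 (0.14) and Lmod2 (0.34), in MI + UA versus MI of Actc1 (-0.034), Tmod1 (-0.074), Tnni3 (-0.015), Tnnc1 (-0.062) and Tnnt2 (-0.054), and in MI + UA versus Sham of Actc1 (0.25), Tmod1 (0.27), Tpm1 (0.024), Tnnt2 (0.088) and Lmod2 (0.19), leaving 2 members called there. It lowers the library size of MI by construction. The 7 markers gave 0.23 (Actc1), 0.28 (Tmod1), 0.085 (Tnnt2) and 0.29 (Lmod2) in MI versus Sham, -0.029 (Tmod1), -0.021 (Tnnc1) and -0.011 (Tnnt2) in MI + UA versus MI, and 0.23 (Actc1), 0.25 (Tmod1), 0.0053 (Tpm1), 0.073 (Tnnt2) and 0.19 (Lmod2) in MI + UA versus Sham, with 3 members called there.

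With rat 66 counted in MI, MI + UA versus MI turned to -0.095 (Tmod1), -0.040 (Tnni3), -0.0033 (Tnnc1), 0.27 (Tnnt1) and -0.061 (Tnnt2), Tnnt1 turned to -0.25 in MI versus Sham and 0.026 in MI + UA versus Sham, the log2 Acta1 to Actc1 difference in MI + UA versus MI turned to -0.017, and that of Tnnt1 to Tnnt2 to -0.47, 1.03 and 0.56 in MI versus Sham, MI + UA versus MI and MI + UA versus Sham. The Tnni1 to Tnni3 difference in MI + UA versus MI was -0.019 with a pseudocount of 5, and the untransformed Tnnt1 to Tnnt2 difference in MI + UA versus Sham was 0.00155 per 100 reads. The cause of these changes was not tested.

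With 1 rat left out at a time, the log2 Acta1 to Actc1 difference ranged from 0.68 to 1.11 in MI versus Sham (exact permutation p = 0.0571 throughout, the smallest that 4 against 3 allow) and from -0.26 to 0.23 in MI + UA versus MI. That of Tnni1 to Tnni3 ranged from -0.42 to 0.88 in MI versus Sham, and that of Tnnt1 to Tnnt2 from -0.19 to 0.66 in MI versus Sham, -1.17 to 0.27 in MI + UA versus MI and -0.89 to 0.56 in MI + UA versus Sham. Single genes changed sign in these ranges: in MI versus Sham Tnni1 (-1.253 to 1.49) and Tnnt1 (-0.65 to 0.50), in MI + UA versus MI Actc1 (-0.0041 to 0.13), Tnni1 (-0.22 to 2.03), Tmod1 (-0.045 to 0.093), Acta1 (-0.19 to 0.43), Tnnc1 (-0.015 to 0.080), Tnnt1 (-0.98 to 0.15), Tnnt2 (-0.017 to 0.10) and Lmod2 (-0.23 to 0.10), and in MI + UA versus Sham Tnnt1 (-0.80 to 0.024). Depth limits the slow troponins, at 0 to 10 counts per rat.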

Other observations

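Summed over the 8 abundant members, without Tnnt1 and Tnni1, thin filament transcripts stood at 6962 to 8668 CPM in Sham, 5861 to 7170 CPM in MI and 6076 to 7309 CPM in MI + UA. Within that sum the share of Acta1 was 1.34% to 3.45% in Sham, 4.03% to 4.84% in MI and 3.19% to 8.07% in MI + UA. The share of Tnni3 was 8.58% to 12.5% in Sham, 6.78% to 8.58% in MI and 6.57% to 8.55% in MI + UA, and that of Actc1 was 43.4% to 48.0%, 46.3% to 50.6% and 46.9% to 51.7%.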
